A study of Bos taurus with 24 samples.

Results

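The collagen genes were taken as the rows of the deposited tables whose symbol is COL, a number, A and a number. There were 41 of them, each on a single row, among 27371 gene symbols and 59846 rows. Collagens are secreted proteins whose chains wind around each other into a helix, and each chain has its own gene. Fibrillar collagens such as types I, III and V form the fibres that give skin its strength, collagen IV builds the sheet of basement membranes, and collagen VI forms fine filaments around cells. Dermal fibroblasts are the main makers of collagen in skin.

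Fibroblasts had been grown from shoulder skin biopsies of 4 Holstein and 4 Angus cattle, all female and of the same age by the methods of the study. The study asked how dairy and beef breeds differ in their response to lipopolysaccharide (LPS), the outer membrane component of Gram-negative bacteria. Each culture received 100 ng/ml of LPS and was sampled at 0, 2 and 8 h, where 0 h is the control, so that each of the 6 groups of breed and hour held 4 animals and the series 24 libraries of polyadenylated RNA. No gene was altered in either breed, and each animal stands for 1 culture, expanded over several passages, frozen and regrown, with the lysates of duplicate wells pooled. In such bulk samples, fewer cells of a type and less RNA per cell cannot be told apart.

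Libraries held 32672866 to 68883145 reads, of which 92.88 to 96.54% were matched to the genome. The rows of a library summed to 51014538 to 104406293 read counts, so that 3 counts were worth 0.029 to 0.059 CPM (read counts per 1e+06 counts of the library). The 9 fibroblast markers summed to 8644 to 10900 CPM over the Angus and to 7866 to 10590 CPM over the Holstein libraries. VIM was the largest part, at 3971 to 6919 CPM, followed by DCN and LUM. PDPN was the lowest, at 0.183 to 17.3 CPM, and was under 1 CPM in 4 libraries. Endothelial, leukocyte, melanocyte and Schwann cell lists summed to no more than 12.3 CPM in any library. Smooth muscle and pericyte markers, led by the myofibroblast actin ACTA2, summed to 3191 to 7358 CPM (Angus) and 4214 to 8399 CPM (Holstein). The sums alone therefore do not settle the cell type. The 12 keratinocyte markers summed to 2.24 to 43.9 CPM over the Angus and to 29.96 to 164 CPM over the Holstein libraries. Most of that came from the desmosome gene DSC3 (0.492 to 141 CPM), while KRT1 had 0 counts in all 24 libraries and KRT5, KRT14 and KRT17 were each under 1 CPM in 21 of them. The part of these cell type lists in the differences between breeds was not tested.

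Of the 41 collagen genes, 18 stood at 1 CPM or more in all 24 libraries. A gene entered a test when at least 50% of the samples compared had 1 CPM or more. By that rule 24 collagen genes were tested in all 7 comparisons, 1 more (COL13A1) in some of them, and 16 in none. Among fibrillar collagens 9 of 11 were tested, in collagen IV 3 of 6, in collagen VI 4 of 4, among the fibril-associated collagens that decorate fibre surfaces 3 of 9, among short-chain and anchoring collagens 3 of 4, among transmembrane collagens 1 of 4, and among multiplexins and the remaining collagen 2 of 3. The 16 untested genes were COL4A3, COL4A4, COL4A6, COL9A1, COL9A2, COL9A3, COL10A1, COL11A2, COL17A1, COL20A1, COL21A1, COL22A1, COL23A1, COL24A1, COL25A1 and COL28A1. They include some of the kidney and cartilage chains, and 12 of them stayed under 1 CPM in every library. The highest untested value was 2.78 CPM, for the hemidesmosome collagen COL17A1 in Holstein 1 at 8 h. In Holstein 1, COL17A1 stood at 1.98, 2.09 and 2.78 CPM at the 3 hours, against at most 0.549 CPM in every other library. The same animal held the highest KRT5 (10.2 CPM), KRT14 (2.77 CPM) and KRT17 (9.69 CPM), all keratins of the keratinocyte list.

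Collagen rows took 6.44 to 9.74% of the counts of the Angus libraries (median 8.28%) and 9.5 to 13.88% of those of the Holstein libraries (median 10.78%). Without COL1A1, whose counting is described next, the shares were 5.83 to 8.3% (median 7.18%) in Angus and 8.57 to 10.15% (median 9.49%) in Holstein. The ranges of the breeds did not overlap once COL1A1 was left out. These shares are a description of 12 libraries a breed that come from 4 animals each.

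**Figure D1:**
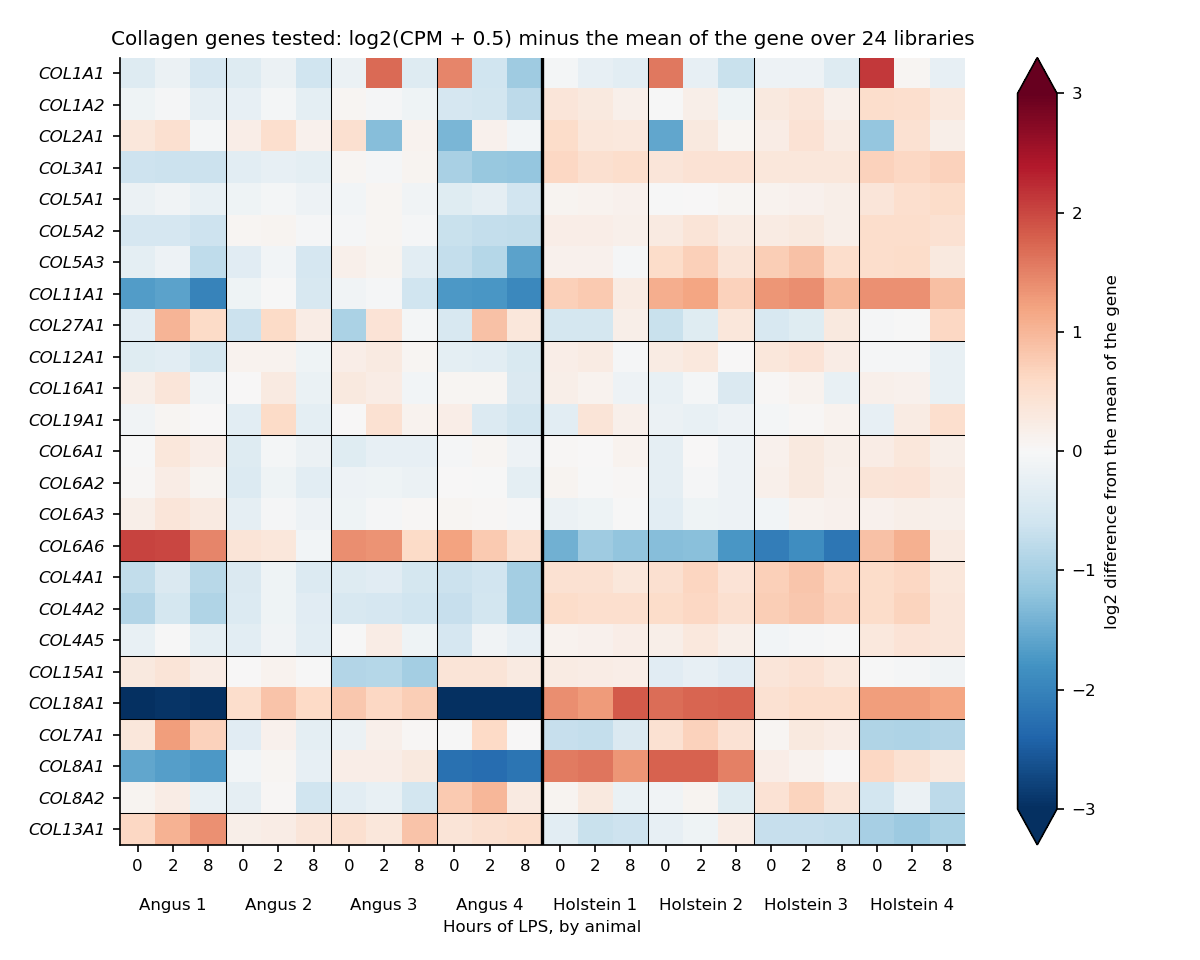
Each row is 1 of the 25 tested collagen genes and each column 1 library, ordered by breed, animal and hours of LPS. Colour gives log2(CPM + 0.5) minus the mean of the gene over the 24 libraries, cut at 3 on either side. COL3A1, COL4A1, COL4A2, COL5A2 and COL11A1 are higher in every Holstein than in every Angus library of the same hour, COL18A1 and COL8A1 are lowest in Angus 1 and 4, and COL1A1 is high in 4 single libraries.

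COL1A1 and COL1A2 encode the chains of type I collagen, the main collagen of skin, so both chains are required by the same protein. COL1A2 was even across libraries. In Angus 1 to 4 it stood at 23620, 21660, 26610 and 18260 CPM at 0 h, 24960, 24620, 24980 and 17640 at 2 h and 21330, 20840, 23370 and 15010 at 8 h, and in Holstein 1 to 4 at 32850, 25680, 31540 and 36850 CPM at 0 h, 31240, 28810, 32950 and 36630 at 2 h and 28760, 23350, 28690 and 31930 at 8 h. At 2 h every Holstein culture was above every Angus culture, and at 0 and 8 h only Holstein 2 lay just below Angus 3.

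COL1A1 stood at 8686, 8747, 10040 and 31480 CPM at 0 h, 10040, 10090, 36870 and 7510 at 2 h and 8022, 7510, 8645 and 5427 at 8 h in Angus 1 to 4. In Holstein 1 to 4 it stood at 10830, 34010, 10190 and 49170 CPM at 0 h, 9619, 9599, 10240 and 11790 at 2 h and 9093, 7104, 8747 and 9585 at 8 h. The 4 libraries of Angus 4 at 0 h, Angus 3 at 2 h, Holstein 2 at 0 h and Holstein 4 at 0 h were far above the other 20, which lay between 5427 and 11790 CPM, and no later or earlier sample of those animals was high. The ratio of COL1A1 to COL1A2 counts was 1.32 to 1.72 in the 4 libraries and 0.3 to 0.426 in the other 20.

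The deposited mean coverage, the average read depth over the bases of a row, gives a second measure of the same reads. Multiplied by the length of the row and divided by its read count, it gives the bases covered per count. For COL1A2 this was 49.9 to 51.2 bases in all 24 libraries, and for COL3A1 53.5 to 55.6. For COL1A1 it was 66.2 to 67.1 in the 4 libraries and 111.8 to 119.0 in the other 20, so a COL1A1 count did not stand for the same amount of sequence in the 2 sets. The largest depth within the row is written only as above the upper limit of the software in 15 of the 20 libraries and in 2 of the 4, and the part of that limit in the mean coverage was not tested. Coverage did not remove the gap: the ratio of COL1A1 to COL1A2 mean coverage was 3.8 to 5.07 in the 4 libraries and 1.45 to 2.21 in the others. The same 4 libraries had the highest share of matched reads (96.23 to 96.54% against 92.88 to 95.25%). COL1A1 (chr19:37088246-37105011 in the UMD v3.1 genome build of the files, plus strand) shares 16453 bases with LOC100847582 on the minus strand, and the row of that gene, at 7335 to 63860 CPM, was also highest in these 4 libraries. The library of Angus 3 at 2 h also held 439087 counts of the ribosomal gene RN28S1, against 31904 to 171329 in the others. By bases per count the 4 libraries lay nearer to COL1A2 and COL3A1 than the other 20 did. Low bases per count, as used below, means only low against those 20. Which of the 2 sets gives the truer COL1A1 counts was not tested. Why the 4 libraries stand apart was not tested. For the collagen genes, most results below that change without them are given both ways. For other genes only results with all libraries are given.

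**Figure D2:**
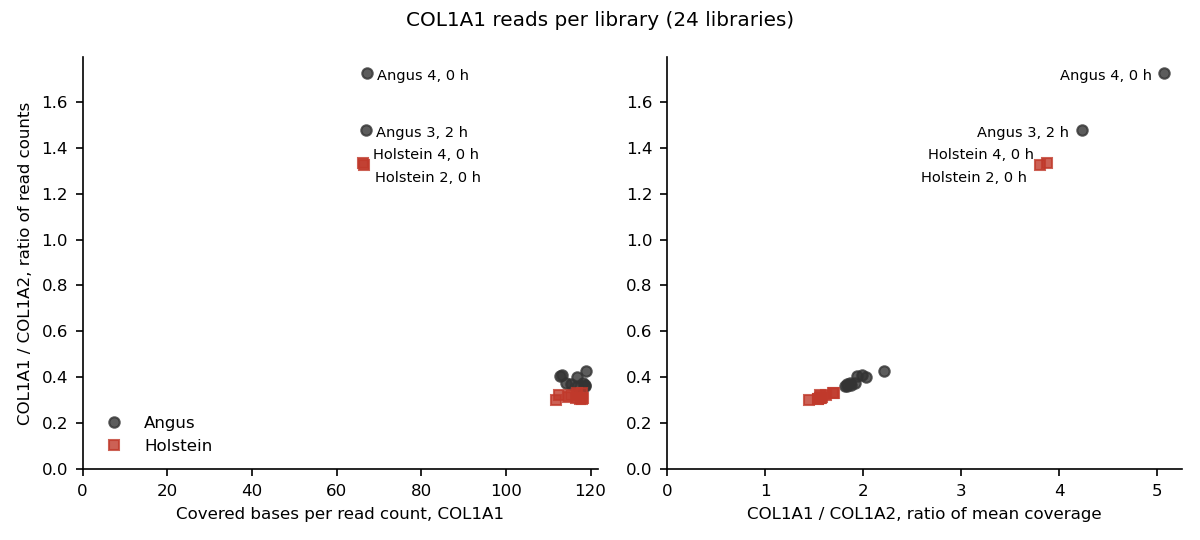
Points are the 24 libraries, Angus as circles and Holstein as squares. The vertical axis is the ratio of COL1A1 to COL1A2 read counts, and the horizontal axes are the COL1A1 bases covered per read count (left) and the ratio of mean coverage (right). The 4 named libraries sit at 66.2 to 67.1 bases per count and at count ratios of 1.32 to 1.72, apart from the other 20 on both axes.

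COL2A1, the main chain of cartilage collagen, followed the same split in the opposite direction. In Angus 1 to 4 it stood at 2.03, 1.81, 2.29 and 0.270 CPM at 0 h, 2.28, 2.35, 0.332 and 1.696 at 2 h and 1.43, 1.702, 1.65 and 1.39 at 8 h, and in Holstein 1 to 4 at 2.44, 0.176, 1.85 and 0.397 CPM at 0 h, 2.03, 1.95, 2.21 and 2.26 at 2 h and 2.00, 1.57, 1.86 and 1.77 at 8 h. It was at 0.176 to 0.397 CPM in the same 4 libraries and at 1.39 to 2.44 CPM in the other 20. No COL2A1 difference passed a test in any comparison.

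Without LPS, COL4A1, COL4A2, COL11A1 and COL8A1 were higher in Holstein than in Angus cultures, by 1.08 to 1.88 on the log2 scale. The comparison asks which collagens differ between breeds before any challenge. At 0 h, 4 of the 25 tested collagen genes were past the threshold of the study (FDR under 0.05, at least 2-fold, average above 1 CPM by the edgeR likelihood-ratio test), all 4 higher in Holstein, against 3.81% of all rows in either direction, 1.73% higher and 2.08% lower. At an FDR under 0.05 alone, 8 were higher and 1 lower, where 13.8% of all rows passed, 6.83% higher and 6.98% lower. The median log2 difference of the 25 was 0.26, against 0.00 over all 20385 rows tested, and 68% of them were higher in Holstein, against 49.7% of all rows. Groups did not overlap for 7 of the 25, against 17.3% of all rows.

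COL4A1 and COL4A2, the chains of the collagen IV found in nearly every basement membrane, lie side by side on opposite strands of chromosome 12 (chr12:88876125-89009422 and chr12:89056707-89166036, with 47284 bases between the rows). COL4A1 stood at 939, 1166, 1201 and 1004 CPM at 0 h, 1153, 1423, 1243 and 1056 at 2 h and 878, 1175, 1077 and 767 at 8 h in Angus 1 to 4. In Holstein 1 to 4 it stood at 2132, 2183, 2552 and 2272 CPM at 0 h, 2141, 2429, 2789 and 2386 at 2 h and 1988, 2064, 2433 and 1979 at 8 h. At every hour the lowest Holstein culture was above the highest Angus culture. The log2 difference was 1.08 (SE 0.13, FDR 1.8e-14) at 0 h, 0.99 (SE 0.14, FDR 1.52e-09) at 2 h and 1.12 (SE 0.16, FDR 1.22e-09) at 8 h by edgeR.

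COL4A2 stood at 241, 335, 319 and 276 CPM at 0 h, 309, 409, 315 and 304 at 2 h and 238, 349.6, 292 and 218 at 8 h in Angus 1 to 4 and at 649.9, 658, 738 and 656 CPM at 0 h, 636, 686, 786 and 708 at 2 h and 628, 622, 721 and 571 at 8 h in Holstein 1 to 4. Its groups did not overlap at any hour either, and the log2 difference was 1.21 (SE 0.13, FDR 2.31e-16), 1.07 (SE 0.14, FDR 2.56e-11) and 1.21 (SE 0.17, FDR 4.11e-10) at 0, 2 and 8 h by edgeR. These were the only collagen genes past the threshold at 0 h both with all libraries and without the 4 libraries of low COL1A1 bases per count, at 1.09 (SE 0.19, FDR 1.51e-06) for COL4A1 and 1.22 (SE 0.20, FDR 3.1e-07) for COL4A2. COL4A5, a chain of other basement membranes encoded on the X chromosome, stood at 1.17, 1.06, 1.43 and 0.876 CPM at 0 h, 1.44, 1.31, 1.78 and 1.32 at 2 h and 1.10, 1.06, 1.30 and 1.14 at 8 h in Angus 1 to 4. The Holstein values were 1.62, 1.71, 1.34 and 1.94 CPM at 0 h, 1.63, 1.93, 1.41 and 2.09 at 2 h and 1.76, 1.72, 1.45 and 2.00 at 8 h. Its difference had an FDR under 0.05 at 8 h only, at 0.60 (SE 0.19, FDR 0.016), and that FDR was 0.0731, 0.0621, 0.0573 and 0.095 without Angus 1, Angus 2, Angus 4 or Holstein 4. At 0 h it passed without Angus 3, at 0.67 (FDR 0.0226).

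COL11A1, a minor fibrillar chain that also joins type V trimers, stood at 187, 547, 554 and 182 CPM at 0 h, 195, 594, 587 and 178 at 2 h and 149, 432, 399 and 157 at 8 h in Angus 1 to 4. In Holstein 1 to 4 it stood at 988, 1275, 1500 and 1544 CPM at 0 h, 1027, 1373, 1570 and 1553 at 2 h and 708, 972, 1175 and 1122 at 8 h. Angus 1 and 4 were lowest, Angus 2 and 3 were between, and every Holstein culture was above them at each hour. The log2 difference was 1.85 (SE 0.39, FDR 0.00021), 1.82 (SE 0.41, FDR 0.00041) and 1.81 (SE 0.37, FDR 0.000138) at 0, 2 and 8 h by edgeR. At 0 h without the 4 libraries, which leaves 3 Angus and 2 Holstein cultures, it was 1.53 with an FDR of 0.0546.

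COL8A1, a short-chain collagen of sheet-like networks, stood at 2.00, 6.41, 7.98 and 1.05 CPM at 0 h, 1.82, 7.11, 7.92 and 0.998 at 2 h and 1.71, 5.70, 8.56 and 1.11 at 8 h in Angus 1 to 4. In Holstein 1 to 4 it stood at 21.2, 24.4, 7.92 and 10.7 CPM at 0 h, 21.9, 24.6, 7.41 and 9.55 at 2 h and 17.9, 20.3, 6.88 and 8.71 at 8 h. Angus 1 and 4 were low, Holstein 1 and 2 high, and Angus 3 stood above Holstein 3 at each hour, so the groups overlapped. Its log2 difference of 1.88 (SE 0.60, FDR 0.0231) at 0 h and 1.82 (SE 0.64, FDR 0.0347) at 2 h passed the threshold, and 1.65 (SE 0.62, FDR 0.0524) at 8 h did not. With the quasi-likelihood F test the FDR was 0.0858 at 0 h and 0.0898 at 2 h, and by DESeq2 0.058 at 2 h. Leaving out any of Angus 1, Angus 4, Holstein 1 or Holstein 2 gave an FDR of 0.0503 to 0.104 at 0 h and 0.0748 to 0.135 at 2 h. Without the 4 libraries the difference was 1.41 (FDR 0.324) at 0 h and 2.25 (FDR 0.00914) at 2 h. At 8 h the FDR was 0.00346 without Angus 3 and 0.0436 without Holstein 3. COL8A2, the other chain of that family, stood at 7.58, 5.75, 5.56 and 12.6 CPM at 0 h, 8.37, 7.33, 6.05 and 14.5 at 2 h and 5.97, 4.53, 4.63 and 8.67 at 8 h in Angus 1 to 4. Its levels in Holstein 1 to 4 were 7.49, 6.57, 9.74 and 4.71 CPM at 0 h, 8.76, 7.51, 11.6 and 6.23 at 2 h and 6.15, 5.42, 9.34 and 3.90 at 8 h, and the groups overlapped at each hour.

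COL3A1, the single chain of type III collagen, which runs with type I in skin, stood at 11420, 14160, 18370 and 8900 CPM at 0 h, 11220, 14700, 17200 and 8027 at 2 h and 11140, 14190, 18570 and 7800 at 8 h in Angus 1 to 4. In Holstein 1 to 4 it stood at 26790, 22450, 22320 and 28390 CPM at 0 h, 24300, 23810, 22270 and 26990 at 2 h and 25260, 23640, 22170 and 28480 at 8 h. Every Holstein culture was above every Angus culture at each hour, although Angus 3 came close. The log2 difference was 0.92 (SE 0.22, FDR 0.000869), 0.92 (SE 0.23, FDR 0.00103) and 0.95 (SE 0.24, FDR 0.00246) at 0, 2 and 8 h by edgeR, under the 2-fold limit each time. At 0 h without the 4 libraries it was 0.74 (FDR 0.0675).

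COL1A2 was 0.49 higher on the log2 scale in Holstein cultures at each hour (FDR 0.0208, 0.017 and 0.0241 by edgeR). The quasi-likelihood F test gave an FDR of 0.075 at 0 h and 0.0734 at 8 h, and without the 4 libraries the 0 h difference was 0.42 (FDR 0.173). Its FDR without 1 animal was 0.0549 to 0.105 at 0 h and 0.0589 to 0.127 at 8 h when any of Angus 1, 2 or 4 or Holstein 1, 3 or 4 was left out, and 0.0568 to 0.0809 at 2 h when Angus 4 or Holstein 3 or 4 was. COL1A1 passed no test between breeds, at 0.83 (SE 0.59, FDR 0.388) at 0 h and -0.65 (SE 0.46, FDR 0.339) at 2 h. At 8 h, where none of the 4 libraries enters, it was 0.23 (SE 0.17, FDR 0.38). Without the 4 libraries the 0 h and 2 h values were 0.20 (SE 0.15) and 0.16 (SE 0.15).

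Type V collagen, which sets the width of type I fibres, is made of COL5A1, COL5A2 and COL5A3 chains. COL5A1 stood at 121, 126, 129 and 106 CPM at 0 h, 128, 131, 143 and 114 at 2 h and 117, 123, 127 and 92.5 at 8 h in Angus 1 to 4. Holstein 1 to 4 held 144, 137, 146 and 177 CPM at 0 h, 148, 139, 150.1 and 193 at 2 h and 150.4, 142, 156 and 200.1 at 8 h. COL5A3 stood at 152, 146, 208 and 114 CPM at 0 h, 166, 175, 197 and 102 at 2 h and 109, 132, 148 and 60.5 at 8 h in Angus 1 to 4. Among Holstein cultures it stood at 204, 271, 309 and 269 CPM at 0 h, 202, 304, 342 and 274 at 2 h and 181, 243, 269 and 228 at 8 h. Holstein 1 was the lowest Holstein culture for COL5A3 at each hour and overlapped the Angus range at 0 h. COL5A3 was higher in Holstein by 0.77 (SE 0.20, FDR 0.00281), 0.80 (SE 0.23, FDR 0.00545) and 1.04 (SE 0.26, FDR 0.00193) at 0, 2 and 8 h by edgeR, past the 2-fold limit at 8 h, and without the 4 libraries the 0 h value was 0.60 (FDR 0.268). COL5A1 had FDRs of 0.0543, 0.148 and 0.0115 at 0, 2 and 8 h, with 0.50 (SE 0.15) at 8 h, where the FDR was 0.0523, 0.0568 and 0.0708 without Angus 1, Angus 4 or Holstein 4. At 0 h the FDR was 0.0333 without Angus 3.

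COL5A2 lies beside COL3A1 on chromosome 2 with 16723 bases between the rows (chr2:7139409-7300563 and chr2:7317287-7356904). Its row held only part of its reads. A microRNA row (MIR2917) inside COL5A2 splits the annotation, and an interval with no symbol (chr2:7214276-7317286), which shares 86288 bases with COL5A2 and ends at the base before COL3A1, held 9073965 counts over the 24 libraries against 691878 in the COL5A2 row. The COL5A2 row accordingly showed 702.7 to 787.6 covered bases per count. COL5A2 stood at 252, 372, 350.0 and 223 CPM at 0 h, 252, 375, 372 and 217 at 2 h and 232, 346, 349 and 213 at 8 h in Angus 1 to 4. The Holstein cultures had 409.7, 429, 426 and 511 CPM at 0 h, 407, 464, 441 and 512 at 2 h and 397, 426, 405 and 494 at 8 h, with every Holstein culture above every Angus culture at each hour. The log2 difference was 0.57, 0.58 and 0.60 at 0, 2 and 8 h (FDR 0.0198, 0.0239 and 0.0154 by edgeR), and in the interval 0.60, 0.58 and 0.61 (FDR 0.0131, 0.0292 and 0.024). The quasi-likelihood F test gave the COL5A2 row an FDR of 0.067, 0.0573 and 0.0558 at the 3 hours. Without Angus 1, Angus 4 or Holstein 4 its FDR was 0.0729 to 0.102 at 0 h, 0.0768 to 0.11 at 2 h and 0.064 to 0.0899 at 8 h, and at 2 h it was 0.0715 without Holstein 2 and 0.0546 without Holstein 3. Without the 4 libraries the row gave 0.36 (FDR 0.534) at 0 h.

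Transmembrane COL13A1, a surface collagen of cell contacts, was lower in Holstein. It stood at 1.499, 0.985, 1.32 and 1.22 CPM at 0 h, 2.22, 1.03, 1.14 and 1.32 at 2 h and 2.91, 1.19, 1.85 and 1.39 at 8 h in Angus 1 to 4. The Holstein values were 0.554, 0.600, 0.316 and 0.154 CPM at 0 h, 0.320, 0.705, 0.313 and 0.114 at 2 h and 0.349, 1.02, 0.294 and 0.180 at 8 h. Each Angus culture was above each Holstein culture at all 3 hours. The log2 difference was -1.6 (SE 0.34, FDR 0.000175) at 0 h, where its average of 0.83 CPM was under the limit of 1, and -1.99 (SE 0.52, FDR 0.00366) at 8 h, past the threshold. It was not tested at 2 h, nor at 0 h once any Angus culture was left out, and its levels lie close to the limit that separates a tested from an untested row. At 0 h it entered the test only through the Angus cultures, and at 8 h Holstein 2 alone of its breed reached 1 CPM. A row admitted through Angus tends to come out lower in Holstein by that alone, so these FDRs are not support for the difference. COL13A1 is the 1 gene counted as lower at 0 h above.

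COL6A6, a collagen VI chain, stood at 12.03, 3.49, 7.53 and 6.58 CPM at 0 h, 11.8, 3.40, 7.28 and 4.81 at 2 h and 7.92, 2.41, 4.09 and 3.76 at 8 h in Angus 1 to 4. Its levels in Holstein 1 to 4 were 0.629, 0.761, 0.229 and 5.11 CPM at 0 h, 0.975, 0.797, 0.340 and 5.93 at 2 h and 0.849, 0.423, 0.180 and 3.19 at 8 h. Holstein 4 stood with the Angus cultures at each hour and the other 3 Holstein cultures were under 1 CPM. With all libraries the log2 difference was -2.13 (FDR 0.0633), -1.76 (FDR 0.103) and -1.96 (FDR 0.0605) at 0, 2 and 8 h by edgeR, and -3.79 (FDR 5.82e-09), -3.28 (FDR 5.91e-07) and -3.21 (FDR 2.13e-05) without Holstein 4. At 0 h without the 4 libraries, which include that of Holstein 4, it was -4.17 (SE 0.62, FDR 4.96e-06). Without Holstein 4 the row entered each of these fits only through the Angus cultures, and the culture against the difference was left out. These FDRs were favoured by that selection and are not support for a breed difference. The main collagen VI chains COL6A1, COL6A2 and COL6A3 had breed differences between -0.08 and 0.25 and FDRs above 0.05 at each hour.

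At 2 h, 4 of 24 tested collagen genes were past the threshold between breeds, 3 higher (COL4A2, COL11A1 and COL8A1) and 1 lower (COL27A1, described below), against 4.45% of all rows (2.43% higher, 2.02% lower). At an FDR under 0.05 alone 8 were higher and 1 lower, against 20.1% of all rows (10.4% higher, 9.71% lower), and the groups of 8 genes did not overlap, against 24% of rows. At 8 h, 5 of 25 were past it, 4 higher (COL4A1, COL4A2, COL5A3 and COL11A1) and COL13A1 lower, against 3.24% of all rows (2.21% higher, 1.03% lower). At an FDR under 0.05 alone 9 were higher and 1 lower, against 16.5% of rows (8.72% higher, 7.78% lower), and the groups of 9 did not overlap, against 20.4%. The median log2 difference of the tested collagen genes was 0.27 at 2 h and 0.25 at 8 h, against -0.01 and 0.01 over all rows. Without the 1 library of low COL1A1 bases per count at 2 h (Angus 3), 9 were higher and 1 lower at an FDR under 0.05, where 28% of rows passed (14.6% higher, 13.3% lower). Without the 3 such libraries at 0 h, 2 were higher (COL4A1 and COL4A2) and 2 lower (COL13A1 and COL6A6), where 2.12% of rows passed (1.05% higher, 1.07% lower). The 2 lower genes entered that fit only through the Angus cultures. They could come out only lower in Holstein, so their count is not support for a breed difference.

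**Figure D3:**
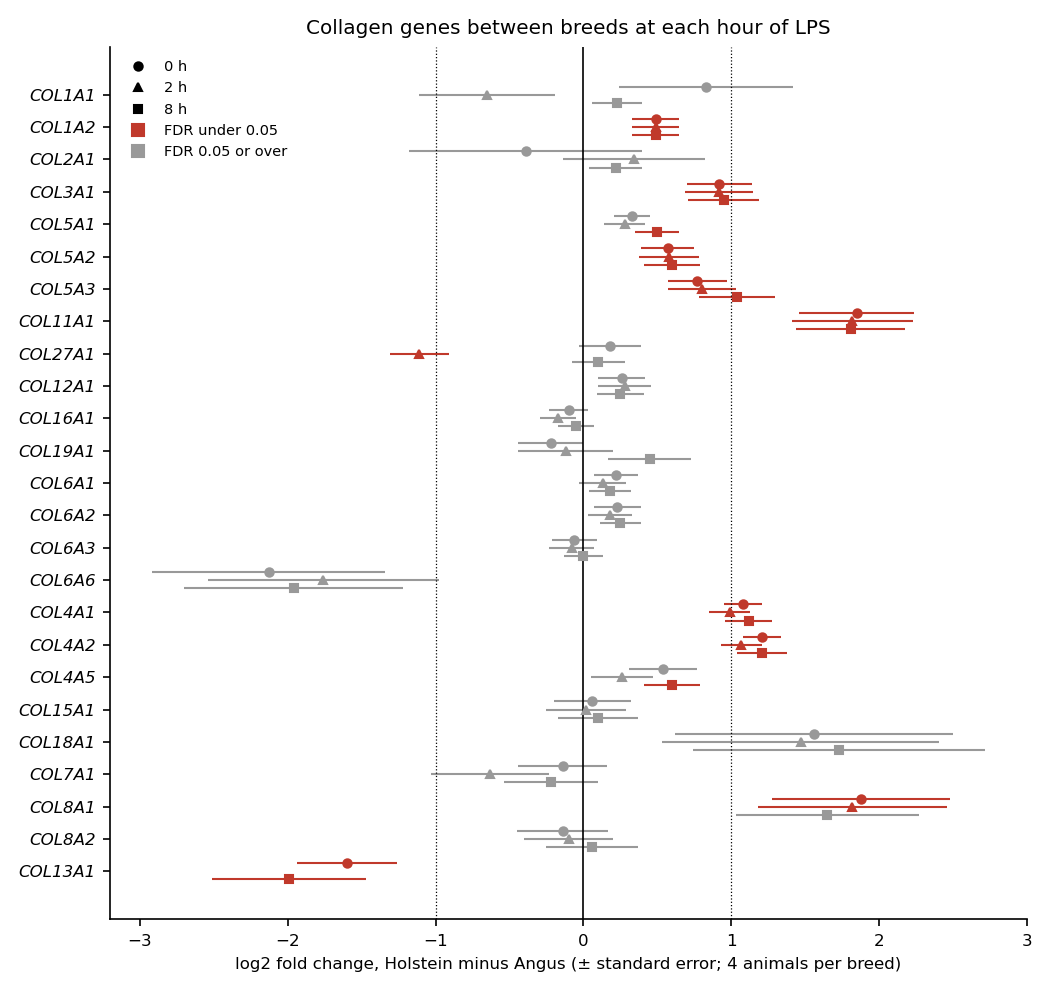
Points are log2 fold changes of Holstein against Angus cultures with their standard errors at 0, 2 and 8 h of LPS, 4 animals per breed, for the 25 tested collagen genes grouped by family. Red marks an FDR under 0.05 and dotted lines mark a 2-fold difference. COL4A1, COL4A2, COL11A1 and COL8A1 lie near or beyond the line at each hour, and COL27A1 is lower in Holstein at 2 h (-1.11) and close to 0 at the other hours.

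Median changes of the collagen genes with LPS were small, and the number past the threshold was near the share over all rows. The comparison asks which collagens move within 2 and 8 h of the challenge, over both breeds. At 2 h none of 24 tested genes was past the threshold, against 2.82% of all rows, and 1 (COL27A1) was under an FDR of 0.05, against 22% of all rows (10.8% higher, 11.2% lower). The quasi-likelihood F test gave the same 0 past the threshold. The median log2 change of the 24 was 0.07, against 0.00 over all rows, and 83.3% of them were higher at 2 h, against 49.3% of all rows. At 8 h, 1 of 25 (COL1A1, lower) was past the threshold, against 1.42% of all rows in either direction and 0.358% lower, and at an FDR under 0.05 alone COL27A1 was higher and COL1A1 and COL16A1 lower, against 12.8% of all rows (6.55% higher, 6.25% lower). The median at 8 h was -0.06, against -0.01, and 40% of the 25 were higher, against 48.5%. Both comparisons share the 0 h controls.

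COL1A1 was lower at 8 h than at 0 h in 8 of 8 animals, but the size of the fall rested on libraries in which its row stood apart. The log2 change was -1.35 (SE 0.35, FDR 0.0031) with all 16 libraries, of which 3 of the 8 at 0 h and none at 8 h belong to the 4 libraries. Without those 3 it was -0.27 (SE 0.13, FDR 0.212), and with COL1A1 taken from mean coverage -0.83 (SE 0.23, FDR 0.0061). At 2 h it was -0.63 (SE 0.43, FDR 0.349), 0.01 (SE 0.12) without the 4 libraries, and -1.15 (FDR 0.0188) without the animal Angus 3, all by edgeR. COL1A2 gave 0.03 (SE 0.16, FDR 0.956) at 2 h and -0.17 (SE 0.17, FDR 0.574) at 8 h. COL3A1 gave -0.04 (SE 0.27, FDR 0.958) and -0.02 (SE 0.28, FDR 0.979).

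Cultures of 1 animal resembled each other across hours, so the fit with the animal as a replicate block compares each culture with itself. In it, 6 collagen genes were higher and none lower at 2 h at an FDR under 0.05, where 47.5% of all rows passed (22.2% higher, 25.3% lower), and none passed the 2-fold threshold. The 6 were COL27A1, COL7A1 at 0.34 (SE 0.10, FDR 0.00139), COL8A2 at 0.23 (SE 0.06, FDR 0.000248), COL6A1 at 0.17 (FDR 0.0116), COL4A5 at 0.23 (FDR 0.0396) and COL4A1 at 0.13 (FDR 0.0415). The blocked fit without the 4 libraries also left out the library paired with each of them, and so held 8 libraries in place of 16. Here 4 were higher and none lower, where 31.6% of all rows passed (14.9% higher, 16.8% lower). The 4 were COL27A1 at 0.69 (FDR 0.0272), COL7A1 at 0.40 (FDR 0.0264), COL8A2 at 0.23 (FDR 0.0388) and COL19A1 at 0.61 (FDR 0.0229). COL6A1 then had an FDR of 0.0586, COL4A1 of 0.081 and COL4A5 of 0.511, and the part of the fewer animals in this was not tested. COL7A1, the collagen of the fibrils that anchor epidermis to dermis, stood at 36.5, 22.3, 25.4 and 28.2 CPM at 0 h, 68.8, 31.3, 31.7 and 43.4 at 2 h and 46.3, 23.0, 29.2 and 28.7 at 8 h in Angus 1 to 4. Holstein 1 to 4 held 17.6, 39.6, 29.7 and 15.0 CPM at 0 h, 17.2, 46.4, 35.3 and 14.7 at 2 h and 21.2, 38.7, 33.6 and 15.2 at 8 h. It was higher at 2 h than at 0 h in all 4 Angus cultures and in Holstein 2 and 3, and slightly lower in Holstein 1 and 4.

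At 8 h with the block, 1 gene (COL27A1) was higher and 10 were lower, where 40.7% of all rows passed (19.4% higher, 21.2% lower). The largest of the 10 after COL1A1 (-1.0, SE 0.31, FDR 0.00822) were COL6A6 at -0.59 (SE 0.13, FDR 3.22e-05), COL11A1 at -0.39 (SE 0.05, FDR 1.28e-14), COL5A3 at -0.35 (SE 0.08, FDR 0.000179) and COL16A1 at -0.32 (SE 0.05, FDR 3.74e-10). COL8A2 (-0.30), COL12A1 (-0.19), COL1A2 (-0.17), COL8A1 (-0.17) and COL4A1 (-0.14) were the others, all under a 2-fold change. COL11A1 was lower at 8 h than at 0 h in 8 of 8 animals, as were COL1A1, COL16A1, COL12A1 and COL1A2. COL16A1, a fibril-associated collagen of skin, stood at 554, 492, 593 and 506 CPM at 0 h, 630.5, 587, 567 and 508 at 2 h and 452, 425, 461 and 358 at 8 h in Angus 1 to 4. Among Holstein cultures it stood at 548, 414, 496 and 538 CPM at 0 h, 521, 467, 522 and 536 at 2 h and 436, 359, 417 and 416 at 8 h. Its fall of -0.32 (SE 0.09, FDR 0.00297) also passed without the block. COL12A1, which bridges neighbouring fibres, stood at 12230, 16990, 18100 and 12910 CPM at 0 h, 12780, 16880, 18980 and 12640 at 2 h and 11040, 14340, 16330 and 11520 at 8 h in Angus 1 to 4. The Holstein cultures had 18050, 18850, 19870 and 15520 CPM at 0 h, 18800, 19660, 20910 and 15490 at 2 h and 15350, 15980, 18520 and 13480 at 8 h. At 8 h the blocked fit without the 4 libraries again left out their paired libraries, and held 10 libraries in place of 16. It had 3 higher and 8 lower genes, where 31.4% of all rows passed (15.2% higher, 16.2% lower). COL8A1 (-0.15, FDR 0.216) and COL4A1 (-0.08, FDR 0.246) were no longer among the lower ones, COL1A1 was at -0.21 (SE 0.05, FDR 0.000802) and COL1A2 at -0.15 (FDR 0.0298). Besides COL27A1, the higher ones were COL7A1 at 0.21 (FDR 0.00448) and COL6A3 at 0.15 (FDR 0.0203).

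COL27A1, a fibrillar collagen best known from cartilage, rose with LPS at both hours, and its change at 2 h differed between the breeds. In Angus 1 to 4 it stood at 7.07, 5.55, 4.42 and 6.26 CPM at 0 h, 18.7, 13.5, 12.1 and 16.8 at 2 h and 13.5, 10.4, 8.49 and 11.4 at 8 h. In Holstein 1 to 4 it stood at 6.05, 5.47, 6.22 and 8.66 CPM at 0 h, 6.00, 6.79, 6.83 and 8.80 at 2 h and 10.2, 11.4, 11.1 and 14.1 at 8 h. In this row all 4 Angus cultures were more than 2-fold up at 2 h and part of the way back at 8 h. The Holstein cultures were near their start in the row at 2 h and up at 8 h. At 2 h every Angus culture was above every Holstein culture.

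The change of COL27A1 over both breeds was 0.84 (SE 0.23, FDR 0.00277) at 2 h and 0.87 (SE 0.14, FDR 2.82e-08) at 8 h by edgeR. Between breeds it was 0.18 (FDR 0.641), -1.11 (SE 0.20, FDR 1.85e-06) and 0.10 (FDR 0.761) at 0, 2 and 8 h. Among animals, the log2 change at 2 h was 1.21 to 1.35 in Angus and -0.01 to 0.29 in Holstein cultures, and at 8 h 0.82 to 0.89 and 0.67 to 1.0. The interaction of breed and LPS tests whether the change differs between the breeds. It was -1.27 (SE 0.28, FDR 0.00357) at 2 h and -0.09 (SE 0.27, FDR 1.0) at 8 h. COL27A1 was the only 1 of 24 collagen genes past the threshold for the interaction at 2 h, against 0.278% of all rows in either direction and 0.0843% lower, and at 8 h none of 25 was, against 0.0982%. The quasi-likelihood F test gave an FDR of 0.0848 for COL27A1 at 2 h, and with the replicate block the FDR was 4.55e-23 by the likelihood-ratio test and 0.000301 by the F test. With the block COL7A1 also had an interaction at 2 h, of -0.47 (SE 0.13, FDR 0.0169), with an FDR of 0.0811 by the F test.

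The COL27A1 row (chr8:105095607-105203080, plus strand) also holds part of its reads. A microRNA row (MIR455) lies inside it, and the interval without symbol after that (chr8:105147136-105203359) shares 55945 bases with COL27A1 and held 30091 counts against 18074. The interval stood at 11.01, 8.67, 6.29 and 9.54 CPM at 0 h, 34.6, 28.1, 24.6 and 30.9 at 2 h and 20.7, 17.4, 13.4 and 18.0 at 8 h in Angus 1 to 4. The Holstein values were 8.70, 8.55, 8.96 and 10.99 CPM at 0 h, 9.59, 12.8, 12.2 and 16.1 at 2 h and 15.6, 17.3, 17.9 and 21.3 at 8 h. Its order of cultures and hours was like that of the COL27A1 row, but all 4 Holstein cultures were higher at 2 h than at 0 h. The log2 change of the interval at 2 h was 1.61 to 1.88 in Angus and 0.13 to 0.56 in Holstein cultures. The interval rose by 1.21 (SE 0.24, FDR 1.6e-05) at 2 h and 0.96 (SE 0.12, FDR 1.9e-12) at 8 h, differed by -1.23 (SE 0.18, FDR 4.09e-09) between breeds at 2 h, and had an interaction of -1.28 (SE 0.26, FDR 0.000965). With both rows summed, the change of COL27A1 at 2 h was 1.07 (SE 0.24, FDR 0.000101) and past the threshold.

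**Figure D4:**
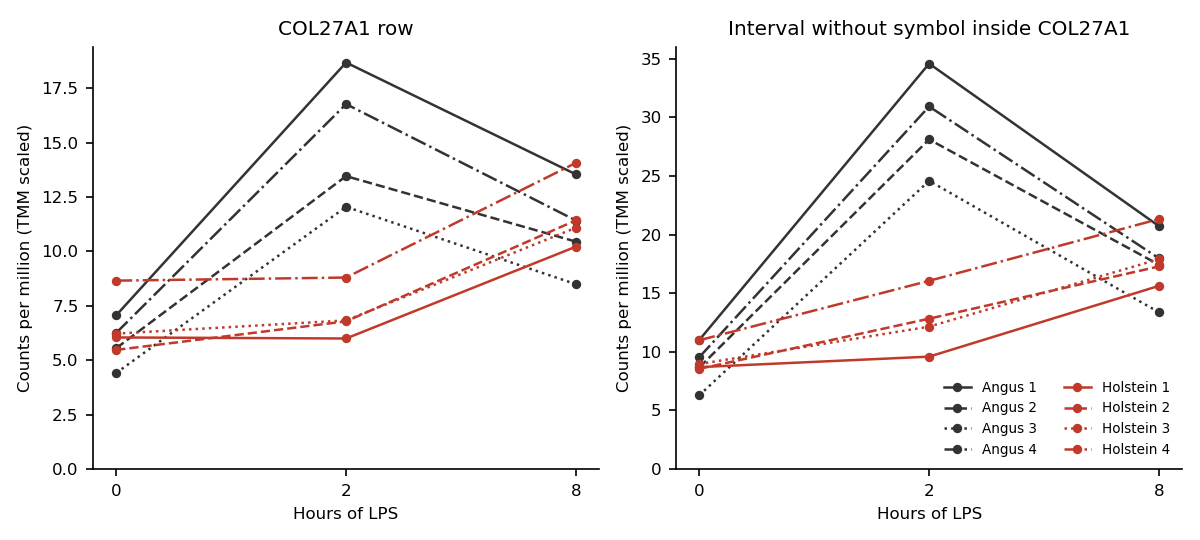
Lines join the CPM of each animal at 0, 2 and 8 h of LPS (hours evenly spaced) for the COL27A1 row on the left and the interval without symbol inside it on the right. In the COL27A1 row the 4 Angus cultures (dark) stand at 12.05 to 18.7 CPM at 2 h and the 4 Holstein cultures (red) at 6.00 to 8.80 CPM. In the interval they stand at 24.6 to 34.6 and at 9.59 to 16.1 CPM. The breeds overlap at 0 and 8 h in both panels.

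For several collagen genes the animals of a breed differed more than the breeds did. COL18A1, a collagen of basement membranes whose end fragment is endostatin, stood at 0.442, 10.7, 13.2 and 0.289 CPM at 0 h, 0.529, 13.8, 11.6 and 0.322 at 2 h and 0.459, 11.4, 12.7 and 0.211 at 8 h in Angus 1 to 4. Its levels in Holstein 1 to 4 were 20.1, 24.5, 10.3 and 18.1 CPM at 0 h, 18.4, 25.7, 10.7 and 18.1 at 2 h and 27.8, 26.4, 10.8 and 17.4 at 8 h. Angus 1 and 4 were under 1 CPM at every hour, and Angus 2 and 3 stood above the lowest Holstein culture at each hour. Its breed difference of 1.56 (SE 0.94), 1.47 (SE 0.94) and 1.73 (SE 0.99) at 0, 2 and 8 h had FDRs of 0.298, 0.289 and 0.246 by edgeR. Angus 1 and 4 were also the lowest 2 cultures for COL8A1, COL11A1, COL5A2, COL3A1 and COL12A1 at 0 h. DSC3 of the keratinocyte list was lowest in the same cultures at each hour, at 0.492 to 9.38 CPM, and its part in these differences was not tested. COL15A1, the closest relative of COL18A1, stood at 819, 679, 368 and 875 CPM at 0 h, 881, 729, 373 and 878 at 2 h and 779.5, 669.8, 333 and 816 at 8 h in Angus 1 to 4. Holstein 1 to 4 held 798, 531, 863 and 663 CPM at 0 h, 779, 567, 906 and 656 at 2 h and 772, 528, 841 and 627 at 8 h, with Angus 3 lowest at each hour and the other 3 Angus cultures inside or near the Holstein range. COL19A1, a rare collagen found near basement membranes, stayed at 0.844 to 2.40 CPM. It had no FDR under 0.05 in the 7 comparisons without a block when all animals were used. Without Angus 4 it was higher with LPS at 2 h at an FDR under 0.05.

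**Figure D5:**
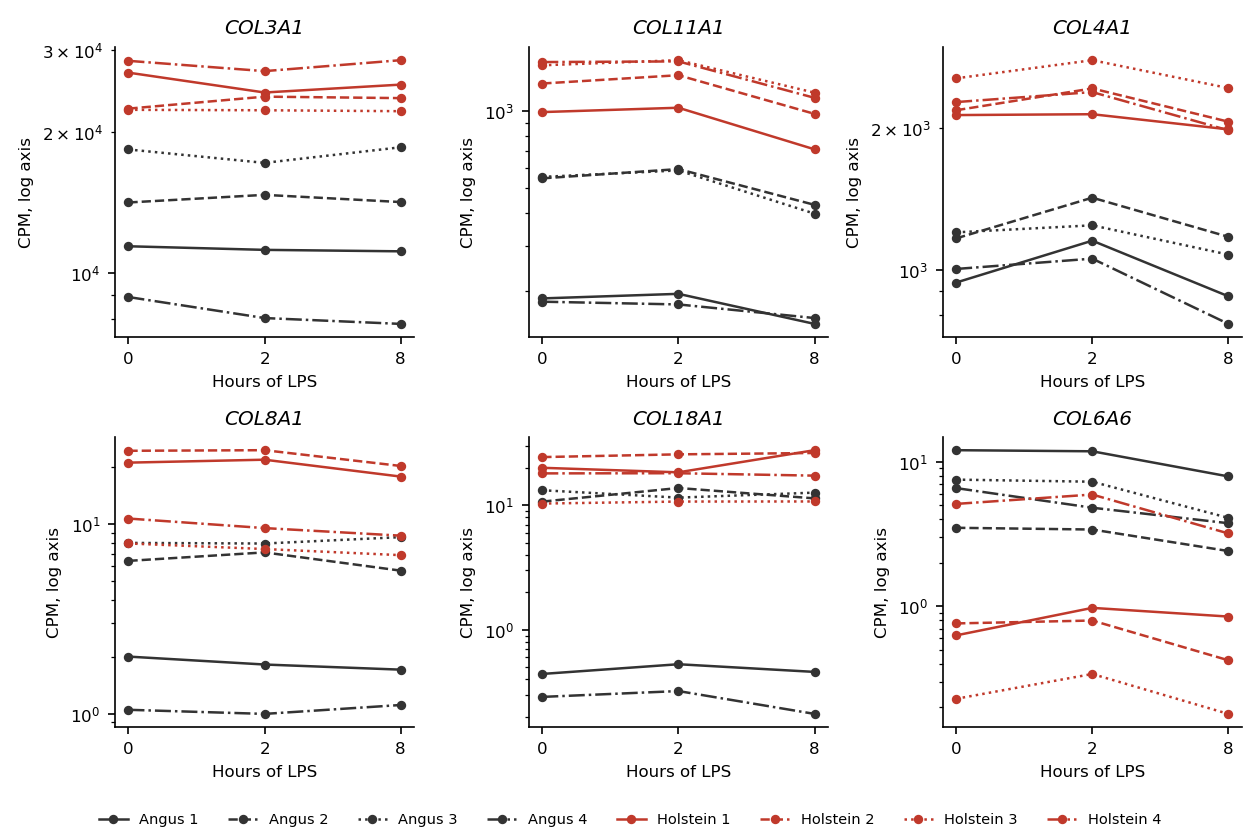
Lines join the CPM of each animal at 0, 2 and 8 h of LPS (hours evenly spaced) on log axes for 6 collagen genes, Angus dark and Holstein red. COL3A1, COL11A1 and COL4A1 separate the breeds at each hour, in COL8A1 and COL18A1 Angus 1 and 4 lie below all others, and in COL6A6 Holstein 4 lies with the Angus cultures.

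Of 55 genes that modify, export, process, cross-link, bind or degrade collagen and are among the rows, 47 were tested. Between breeds at 0 h, 12 were higher and 1 lower in Holstein at an FDR under 0.05 (13.8% of all rows), at 2 h 11 and 1 (20.1%), and at 8 h 14 and 2 (16.5%). These counts and the values below are from all libraries. Without the libraries of low COL1A1 bases per count, 2.12% of all rows passed that limit at 0 h, and values of these genes in that fit are not given here. P4HA3, a subunit of the enzyme that hydroxylates collagen prolines, was past the threshold at each hour at 1.13 (SE 0.30), 1.05 (SE 0.31) and 1.17 (SE 0.31). So were the cross-linking oxidase LOXL3 at 1.63 (SE 0.28), 1.6 (SE 0.28) and 1.57 (SE 0.29), and the collagen-binding integrin ITGA11 at 1.42 (SE 0.32), 1.58 (SE 0.32) and 1.59 (SE 0.33). Angus 1 and 4 had the lowest P4HA3 and LOXL3 levels at every hour. PCOLCE2, an enhancer of propeptide removal, was lower in Holstein at -1.05 (SE 0.28), -1.06 (SE 0.30) and -1.18 (SE 0.32), with Angus 1 and 4 highest. The related PCOLCE was higher at 0.63, 0.57 and 0.64 (FDR 0.00548, 0.00422 and 0.00453). The integrin ITGA2 was higher by 1.53 (SE 0.28, FDR 6.42e-06) at 8 h. SERPINH1, the collagen chaperone, had breed differences of 0.03, 0.02 and -0.03, P4HA1, the main prolyl hydroxylase subunit, of 0.03, 0.07 and 0.18, and the main cross-linking oxidase LOX of -0.27, -0.29 and -0.30, none under an FDR of 0.05.

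With LPS, 5 of the 47 were higher and 1 lower at 2 h at an FDR under 0.05 (22% of all rows), and 3 and 3 at 8 h (12.8%). FURIN, a protease that cuts proproteins, stood at 25.2, 29.6, 34.4 and 32.4 CPM at 0 h, 67.2, 68.9, 83.6 and 69.1 at 2 h and 32.0, 36.2, 42.8 and 31.8 at 8 h in Angus 1 to 4. Among Holstein cultures it stood at 37.8, 42.0, 36.1 and 43.0 CPM at 0 h, 79.4, 92.9, 74.7 and 102 at 2 h and 52.1, 58.0, 45.2 and 68.3 at 8 h. It rose by 1.18 (SE 0.12, FDR 1.56e-18) at 2 h, in 8 of 8 animals, and was the only gene of the lists past the threshold there. ITGA2 rose by 1.25 (SE 0.36, FDR 0.00931) at 8 h, from 0.491 to 2.40 CPM at 0 h to 1.15 to 5.38 CPM. SERPINH1 fell at 8 h by 0.31 on the log2 scale (SE 0.07, FDR 0.000629), in 8 of 8 animals, and its change at 2 h was 0.06 (SE 0.08). P4HA1, LOX and PCOLCE had log2 changes of 0.16, -0.22 and -0.23 at 8 h with FDRs of 0.319, 0.264 and 0.527, and of 0.01, -0.12 and 0.00 at 2 h. No gene of these lists passed for the interaction of breed and LPS.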

How the data were processed

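RNA of 24 fibroblast cultures was sequenced by the authors, who aligned the reads to the bovine UMD v3.1 genome with NextGENe 2.3.4 and wrote 1 table per library. Per the file headers, each row of these deposited tables gives a read count, here used as raw counts, and a mean coverage (average depth over the row). The largest depth in the row, another deposited value, was read only to check coverage. Strand was not stated, so overlapping genes on opposite strands cannot be told apart.

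Counts were tested with edgeR 4.0.16 (R 4.3.3) after the methods of the study: TMM scaling, rows with at least 1 CPM in 50% of the samples compared, likelihood-ratio test, Benjamini-Hochberg adjustment (FDR) over all rows tested. A row was past the threshold at FDR under 0.05, a fold change of 2 or more and an average above 1 CPM. LPS at 2 and 8 h was compared with 0 h over 16 libraries, the breeds at each hour over 8, and the interaction of breed and LPS over 16. Levels are CPM scaled by TMM over 24 libraries; per-animal changes used log2(CPM + 0.5). Alternatives were the quasi-likelihood F test, DESeq2 1.42.0 and other scaling, filters, samples and blocks, and the scripts were tested on simulated data. Figures used matplotlib 3.10.9.

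Animal numbers link the hours, since each animal gave 1 culture. Deviations from group means correlated at 0.658 on average between 0 and 2 h of the same animal (lowest 0.545). Between 0 and 8 h they correlated at 0.619 (lowest 0.533), so the numbers pair the samples. The averages between animals, -0.218 and -0.205, follow from centring each group on its own mean and add no evidence. No 2 libraries of a group agreed within counting noise (chi-square per degree of freedom 33.0 to 461.2 over 36 pairs).

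Collagen genes past the threshold were named with COL1A1, COL1A2 and COL3A1, and values in every sample were given for them and for chains that share their trimer or locus. From the lists of collagen-handling genes, those past the threshold were named with SERPINH1, P4HA1, LOX and PCOLCE. Other collagen genes were named freely. The collagen genes and the lists were chosen with earlier results of these data known.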

Additional observations from a re-analysis of the deposited data

Results flagged for a closer look

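In 144 groups of 4 animals (24 collagen genes in 6 groups of breed and hour), the distance of the highest or lowest culture from its nearest neighbour passed Dixon's critical value in 5, where chance alone passes about 5% of groups. COL1A1 stood at 31480 CPM in Angus 4 at 0 h, against 8686 to 10040 CPM in the other Angus cultures. COL2A1 stood at 0.27 CPM in the same library, against 1.81 to 2.29 CPM. This is 1 of the 4 libraries whose COL1A1 row had fewer covered bases per count than the remaining libraries. COL1A2 stood at 17640 CPM in Angus 4 at 2 h, against 24620 to 24980 CPM, and this animal was lowest for COL1A2 at the other hours as well. COL4A2 stood at 409 CPM in Angus 2 at 2 h, against 303.5 to 315 CPM, and at 738 CPM in Holstein 3 at 0 h, against 649.9 to 658 CPM.

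The response of COL27A1 at 2 h differed between the breeds, with an interaction of -1.27 on the log2 scale. In the COL27A1 row the log2 change was above 1 in 4 of 4 Angus cultures and no higher than 0.29 in the Holstein cultures. In the interval without symbol inside the gene it was 1.61 to 1.88 in Angus and 0.13 to 0.56 in Holstein cultures.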

How the results depend on the processing

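The number of collagen genes past the threshold under FDR alone was 1 in place of 0 for LPS at 2 h, 3 in place of 1 at 8 h, 9 in place of 4 between breeds at 0 and at 2 h, and 10 in place of 5 at 8 h. For LPS at 8 h it was 0 without the 4 libraries of low COL1A1 bases per count, with or without the replicate block, and 0 with COL1A1 taken from coverage. For LPS at 2 h it was 1 when the inner intervals were added to COL5A2 and COL27A1, an alternative chosen after seeing the data. For the interaction at 2 h the F test gave 0 in place of 1. With the replicate block the 4 counts for LPS and interaction were 0, 1, 1 and 0, as without it. With 1 animal left out the counts were 0 to 1 and 1 for LPS at 2 and 8 h, 3 to 5, 2 to 6 and 4 to 7 between breeds at 0, 2 and 8 h, and 1 and 0 for the interactions. The count at 2 h between breeds was 2 without Angus 1 and 6 without Angus 3 or Holstein 4. Of 812 alternatives for single genes, 747 kept their direction and side of the FDR limit, 34 lost the call, 4 gained it and 27 changed sign with an FDR above 0.05 before and after. Without the 4 libraries COL1A1 was 0.01 (0.05 with the block) for LPS at 2 h, 0.16 between breeds at 2 h and 0.02 for the interaction at 8 h, COL16A1 was -0.01 for LPS at 2 h, COL3A1 0.03 for LPS at 8 h and COL1A2 0.06 for the interaction at 8 h. With the block added, the interactions of COL1A2 and COL3A1 were -0.15 and -0.1 at 2 h, and that of COL3A1 -0.04 at 8 h. DESeq2, the other scaling and the count filter gave COL1A2 -0.01 for the interaction at 2 h. With 1 animal left out, the values that changed sign ranged over -0.89 to 0.16 for COL1A1 between breeds at 2 h, -0.02 to 0.21 for COL27A1 between breeds at 8 h, -0.06 to 0.05 for COL1A2 and -0.02 to 0.05 for COL3A1 in the interaction at 2 h, and -0.04 to 0.03, -0.01 to 0.05 and -0.01 to 0.09 for COL1A2, COL3A1 and COL16A1 in that at 8 h. Over all rows, the past-threshold count for the interaction at 2 h was 56, with 16 by the F test and 126 with the block, and at 8 h 20, 0 and 100. The F test left 756 rows at an unadjusted p under 0.05 at 8 h. At FDR alone, LPS gave 4436 rows at 2 h and 9575 with the block, 2606 and 8282 at 8 h, and breed at 0 h gave 2816, with 1654 by the F test and 429 without the 4 libraries. The cause of these shifts was not tested. The last fit also held fewer samples, and no fit left out as many other libraries, so the part of sample number was not tested either. Groups of 4 animals limit every comparison, COL2A1, COL4A5, COL13A1 and COL19A1 lie near 1 CPM, and COL5A2 and COL27A1 counts cover part of each gene.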
